A study of Collinsia rattanii with 18 samples.

Results

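Among the 46127 genes counted in floral buds of the sister species *C. linearis* (predominantly outcrossing) and *C. rattanii* (highly selfing), 84 genes fell from the earliest to the latest bud stage in both species. A gene was taken when its lowest value at stage B1 was at least 2 times its highest value at stage B3 in each species, with a mean at B1 of at least 1 count per 1000000 (CPM) in each. The 18 libraries came from 3 plants per species, each sampled at B1 (early), B2 (middle) and B3 (late, before the flower opens). The stages were set by the color and size of the floral organs, with petals green at B1 and white or violet later. Each library was made from a few whole buds of 1 plant. No treatment separated the groups, so species and stage are the compared factors. The plants of each species came from more than one population.

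A floral bud grows and differentiates all of its organs at once, so a library of whole buds mixes sepals, petals, stamens and pistil in proportions that shift as the bud lengthens. In flowering plants in general, meiosis and the making of the pollen wall take place early in the anther, with help from the tapetum, a nourishing cell layer that is lost before pollen is shed. Cell division is likewise commonest in young organs, while later growth comes more from cell expansion. Genes of such early processes are known to lose transcript share as a bud matures. In whole buds, fewer cells of a type and less RNA per cell cannot be told apart. The count table does not pair gene identifiers with names, no sequence or annotation was used here, and none of the genes that the study's text names with a function was among the 84. The members are therefore described by identifier and expression, with no function assigned, and only a few are printed.

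The rule used the B1 and B3 libraries of both species, so the falls themselves describe the members and were not tested. CPM values are on library sizes scaled by TMM, edgeR's correction for library composition. Counts on genes ranged from 23831351 to 41451418 per library. The B3 and B2 libraries of *C. linearis* plant 2 had TMM factors of 0.522 and 0.716, against 0.935 to 1.2 in the others. The top 50 genes by count made up 22.8% and 15.6% of these libraries, and 8.11 to 11.2% of the others. Each pair of replicate libraries was further apart than counting noise (chi-square of at least 49.5 for each degree of freedom).

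In *C. linearis* alone 719 genes met the rule, and in *C. rattanii* alone 256 genes. The 84 shared genes were 11.7% of the first list and 32.8% of the second. Of the 19573 genes with a mean B1 CPM of at least 1 in each species, 2.06% met the fold in *C. linearis*, 1.17% in *C. rattanii* and 0.429% in both. The smaller of the 2 species' ratios of lowest B1 to highest B3 was 2.01 to 2.02 in the 3 members just inside the fold and 1.96 to 1.97 in the 3 genes just outside. The smaller mean B1 CPM was 1.01 to 1.05 in the 3 members just inside that limit and 0.956 to 0.991 in the 3 genes just outside. With plant 1 of *C. linearis* left out at B1, 141 genes met the rule, and with plant 3 of *C. rattanii* left out at B1, 127 did. With the *C. linearis* B3 library of plant 2 left out, the count was 98. Leaving out a B3 library can only add genes, so all 84 members stayed by construction, and this does not test the list.

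Together the members were a small part of the bud transcriptome that shrank with stage in each plant. Their summed level in *C. linearis* was 3417, 3354 and 3063 CPM in plants 1 to 3 at B1, 2305, 1706 and 1208 CPM at B2, and 315, 333 and 330 CPM at B3. In *C. rattanii* it was 1470, 1590 and 1383 CPM at B1, 827, 514 and 374 CPM at B2, and 191, 268 and 311 CPM at B3. The stages did not overlap within a species, B2 included, whose libraries the rule did not use. At B1 and at B2 each *C. linearis* plant stood above each *C. rattanii* plant. The gap at B3 was much narrower, with 315 CPM in the lowest *C. linearis* plant and 311 CPM in the highest *C. rattanii* plant. One gene, *RCORA31626*, made up 14.9 to 45.2% of the sum, depending on library. The sum of the other members kept the same order of stages. At B3 that sum was 239 to 265 CPM in *C. linearis* and 146 to 178 CPM in *C. rattanii*. The 45.2% was in the B3 library of *C. rattanii* plant 3. The near-equal *C. linearis* sums at B1 did not mean equal levels of single members. The median over the members there was 9.91, 19.8 and 18.6 CPM in plants 1 to 3, while *RCORA213459* alone added 586, 104 and 5.70 CPM.

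**Figure D1:**
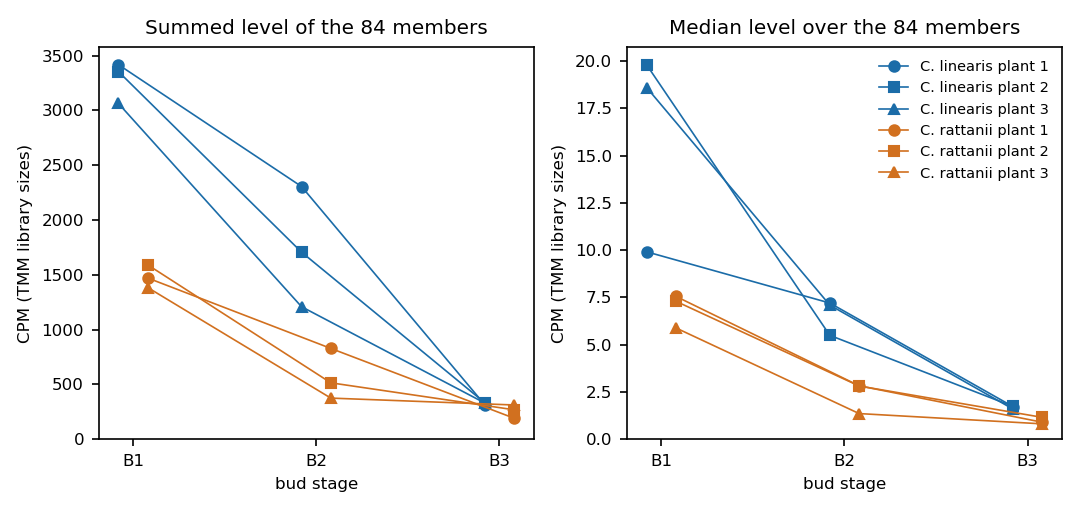
Summed CPM (left) and median CPM (right) of the 84 members against bud stage, 1 point per library and 1 line per plant, both axes starting at 0. The sums fall from 3063 to 3417 CPM at B1 to 315 to 333 CPM at B3 in *C. linearis* and from 1383 to 1590 CPM to 191 to 311 CPM in *C. rattanii*, and *C. linearis* plant 1 has a low median at B1 (9.91 CPM).

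Most members were genes of moderate or low level. The mean CPM of a member at B1 had a median of 16.7 in *C. linearis* (range 1.01 to 828) and, for *C. rattanii*, of 6.98 (range 1.01 to 450). At B2 the medians were 7.48 and 2.7 CPM, and at B3 they were 1.74 and 1.07 CPM. At B1, the mean of 27 members was under 10 CPM in *C. linearis*, and *C. rattanii* had 52 such members. At B3, 32 members had a mean under 1 CPM in *C. linearis*, against 42 for *C. rattanii*. Up to 21 members had fewer than 10 counts in a B3 library, so the late level of these genes rests on few reads.

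The median member fell by 2.79 on the log2 scale from B1 to B3 in *C. linearis*, a 6.91-fold change, and by 2.46 in *C. rattanii*, a 5.51-fold change (differences of mean log2 CPM with a prior count of 2). The middle 50% of the members had falls of 2.43 to 3.94 in *C. linearis* and 2.11 to 2.97 in *C. rattanii*. Over the 19573 genes the median falls were 0.07 and 0.00. The fall was larger in *C. linearis* for 64 members and larger in *C. rattanii* for 20. Taken plant by plant, however, the median falls were 2.34, 3.22 and 3.01 in *C. linearis* and 2.73, 2.33 and 2.22 in *C. rattanii*, so the species overlapped. Across the 84 members the falls in the 2 species had a Pearson's r of 0.36 and a Spearman's rho of 0.44, as a description over genes selected on both axes.

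**Figure D2:**
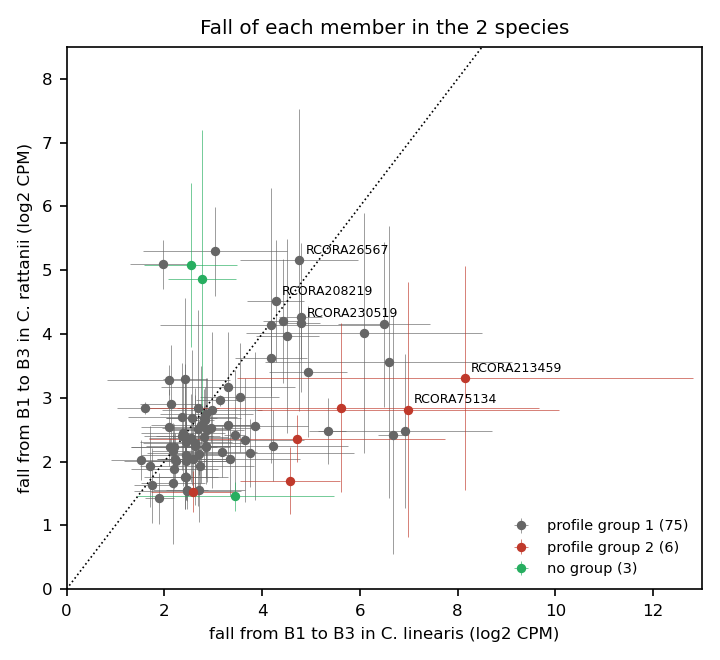
Fall from B1 to B3 in log2 CPM for each of the 84 members, *C. linearis* on the x axis and *C. rattanii* on the y axis, with bars for the SD over the 3 plants and a dotted line of equal falls. Points to the right of the line fell more in *C. linearis* (64 members); *RCORA213459* and *RCORA75134* lie farthest right, with long bars.

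The most abundant member was *RCORA31626*. It stood at 799, 855 and 829 CPM in *C. linearis* plants 1 to 3 at B1, at 505, 501 and 180 CPM at B2, and at 76.0, 67.6 and 86.8 CPM at B3. In *C. rattanii* it stood at 449, 555 and 348 CPM at B1, 265, 148 and 72.0 CPM at B2, and 45.2, 89.4 and 141 CPM at B3. As a ratio, plants of a species were closer to each other at B1 than at B2, where plant 3 was the lowest in both species. In CPM the SD in *C. rattanii* was about the same at both stages (104 and 97.1). *C. rattanii* plant 3 had a lower value at B2 than at B3. The log2 fall was 3.44 ± 0.21 (SD, n = 3 plants) in *C. linearis*, against 2.42 ± 1.02 in *C. rattanii*. The next most abundant, *RCORA230519*, fell at both steps in each plant. Its *C. linearis* values were 133, 184 and 206 CPM at B1, 72.2, 49.5 and 24.2 CPM at B2, and 5.69, 7.50 and 5.42 CPM at B3. In *C. rattanii* they were 66.4, 70.0 and 53.6 CPM at B1, 18.6, 7.33 and 5.41 CPM at B2, and 2.54, 3.58 and 4.46 CPM at B3. No 2 stages overlapped in either species, and the falls were 4.79 ± 0.38 and 4.17 ± 0.56.

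The members with the largest fall, taken as the smaller of the 2 species' falls, were *RCORA26567* and *RCORA208219*. *RCORA26567* was mainly a *C. rattanii* transcript. It stood at 40.9, 35.2 and 87.6 CPM in *C. rattanii* at B1, at 14.8, 3.31 and 22.6 CPM at B2, and at 2.12, 3.3 and 0.316 CPM at B3. In *C. linearis* it was at 3.26, 10.4 and 2.85 CPM at B1, at 1.18, 0.487 and 0.624 CPM at B2, and at 0, 0.224 and 0.212 CPM at B3, the last from 0, 4 and 6 counts. The falls were 4.76 ± 1.21 in *C. linearis* and 5.16 ± 2.37 in *C. rattanii*. With a prior count of 0.5 they were 5.59 and 5.24, and with 5 they were 4.07 and 5.02. The order of the species thus depends on the prior count. In *C. rattanii* plant 2 the value at B2 was the same as at B3 to 2 digits, while the other plants were still above their B3 values. *RCORA208219* overlapped between the species at B1, at 2.85, 9.04 and 9.91 CPM in *C. linearis* and 3.39, 2.90 and 4.51 CPM in *C. rattanii*. At B2 it was at 1.26, 1.87 and 2.24 CPM in *C. linearis* and 0.896, 0.106 and 0.186 CPM in *C. rattanii*. These B2 values did not overlap, though the difference did not pass (edgeR FDR 0.0973). At B3 it was at 0.164, 0.392 and 0.283 CPM in *C. linearis* and 0.121, 0.159 and 0.0316 CPM in *C. rattanii*, where the libraries held 4, 4 and 1 counts. The falls were 4.28 ± 0.58 in *C. linearis* and 4.51 ± 0.96 in *C. rattanii*. With a prior count of 0.5 they were 4.51 and 5.09, and with 5 they were 3.93 and 3.84, so here too the order turns.

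**Figure D3:**
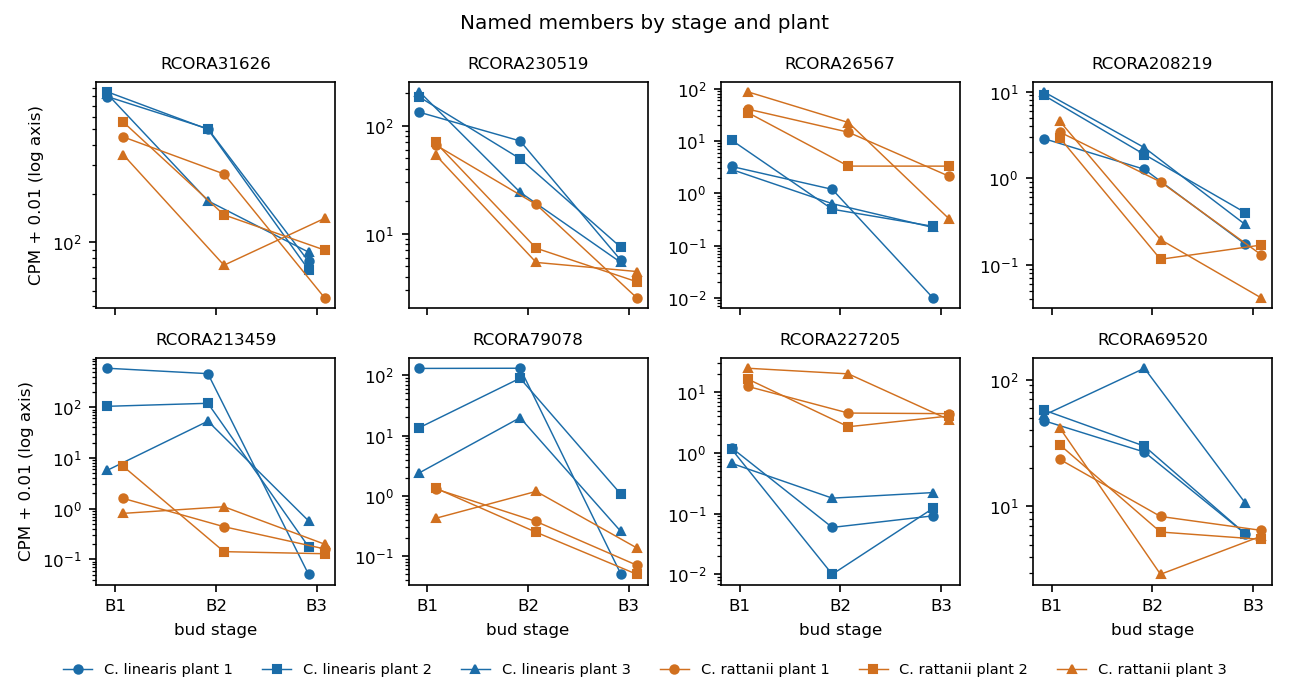
CPM + 0.01 on a log axis against bud stage for 8 members, 1 point per library, with plants marked by symbol and species by color; a value of 0.01 is a library with 0 counts. *RCORA213459* and *RCORA79078* stay high at B2 in *C. linearis* and stand near 1 CPM or below there in *C. rattanii*, while *RCORA227205* and *RCORA26567* are higher in *C. rattanii* at each stage.

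The middle stage showed how the fall was spread over time. B2 lay between B1 and B3 in the means of 76 members in *C. linearis*, of 82 in *C. rattanii* and of 74 in both. The 3 B1 libraries all stood above the 3 B2 libraries for 33 members in *C. linearis* (39.3%, against 11.7% of the 19573 genes) and for 43 in *C. rattanii* (51.2%, against 3.23%). The 3 B2 libraries all stood above the 3 B3 libraries for 63 members in *C. linearis* (75%, against 12.6%) and for 31 in *C. rattanii* (36.9%, against 9.06%). The rule chose high B1 and low B3 values, so these shares describe the members and test nothing. A full staircase with no overlap at either step was seen for 19 members in *C. linearis* (background 0.874%) and 20 in *C. rattanii* (background 0.337%).

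By B2 the median member had made 45.8% of its log2 fall in *C. linearis* (middle 50% 31.1 to 60.4%) and 58.7% in *C. rattanii* (middle 50% 44.9 to 71.8%). The median early step, from B1 to B2, was a fall of 1.32 in *C. linearis*, against 1.51 in *C. rattanii*, and the median late step, from B2 to B3, was a fall of 1.5 against 1.02. The share was larger in *C. rattanii* for 59 members and larger in *C. linearis* for 25. More than 50% of the fall was made by B2 in both species for 24 members, in *C. rattanii* only for 30, in *C. linearis* only for 12 and in neither for 18. The plants do not separate the species on this measure. The median share was 26.9, 55.1 and 43.0% in *C. linearis* plants 1 to 3 and 34.7, 55.8 and 78.6% in *C. rattanii* plants 1 to 3. Without *C. rattanii* plant 3 the *C. rattanii* value was 45.6%, the level of *C. linearis*. The shares of single members hardly went together between species (Pearson's r 0.09, Spearman's rho 0.10 over 84 members).

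The members with the largest share by B2, as a mean of the species, were *RCORA227205* and *RCORA11303*. *RCORA227205* was at 1.21, 1.15 and 0.666 CPM in *C. linearis* at B1 and at 0.0493, 0 and 0.170 CPM at B2, from 2, 0 and 6 counts. Its B3 values there were 0.0819, 0.112 and 0.212 CPM, overlapping those of B2. In *C. rattanii* it was at 12.5, 16.6 and 25 CPM at B1, 4.55, 2.7 and 20.2 CPM at B2 and 4.44, 4.06 and 3.54 CPM at B3, so plants 1 and 2 had dropped by B2 and plant 3 had not. *RCORA11303* was at 1.55, 17.3 and 15.4 CPM in *C. linearis* at B1 and at 0.296, 0.162 and 0.482 CPM at B2, below its B3 values of 0.655, 0.504 and 0.744 CPM. In *C. rattanii* plants 1 to 3 it was at 2.64, 3.25 and 2.51 CPM at B1, at 2.16, 5.53 and 0.340 CPM at B2, and at 1.12, 1.04 and 0.790 CPM at B3. It was also the member whose share was larger in *C. linearis* by the most, 128% against 50.2%. *RCORA04202* followed, with 105% against 38.2%. Both *C. rattanii* shares rest on single plants. That of *RCORA11303* was 106% without plant 2 and -16.9% without plant 3, and that of *RCORA04202* was 17% without plant 2 and 60.6% without plant 3. The *C. rattanii* share of *RCORA227205*, 69.1%, was 41.1% without plant 2 and 116% without plant 3.

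In the other direction, the share was larger in *C. rattanii* by the most for *RCORA69520* (106% against 6.32%) and *RCORA38643* (94.6% against 14.5%). *RCORA69520* was at 47.5, 57.6 and 52.3 CPM in *C. linearis* at B1, at 26.8, 29.9 and 123 CPM at B2 and at 6.10, 6.10 and 10.7 CPM at B3. Plant 3 alone rose at B2. In *C. rattanii* the gene was at 23.5, 30.6 and 41.5 CPM at B1, at 8.33, 6.27 and 2.91 CPM at B2, and at 6.47, 5.49 and 5.82 CPM at B3. By B2 plants 1 and 2 were still somewhat above their B3 values, and plant 3 was below its own. *RCORA38643* was at 2.73, 2.24 and 3.14 CPM in *C. linearis* at B1 and at 3.47, 1.54 and 1.33 CPM at B2. In *C. rattanii* it went from 1.5, 1.77 and 2.56 CPM at B1 to 0.365, 0.344 and 0.557 CPM at B2, with B3 at 0.393, 0.358 and 0.379 CPM. The *C. linearis* share of *RCORA69520* was -5.21, -7.84 and 28.6% without plants 1, 2 or 3, and that of *RCORA38643* was 24.7, 13.2 and 3.28%. The *C. rattanii* shares stayed at 87.2% or above for both genes in such leave-outs.

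The median spread between plants of a species was larger over the members than over all genes tested, at B1 as well as at B2. The 2 sets were not matched for level, and 19 members had a mean under 1 CPM at B2 in *C. rattanii*. At B1 the SD of log2 CPM over the 3 plants had a median of 0.67 over the members in *C. linearis* and 0.50 in *C. rattanii*, against 0.39 and 0.33 over the 25263 genes tested at B2. In *C. rattanii* the median SD at B2 was 1.07 over the members, against 0.42 over those genes, and in *C. linearis* the medians were 0.69 and 0.48. At B3 the members' median was 0.42 in *C. rattanii*, against 0.28, and 0.40 in *C. linearis*, against 0.43. In *C. rattanii*, plant 3 had the lowest B2 value for 40 members and the highest for 25. Its B2 value was below its own B3 value for 30 members, against 3 for plant 1 and 14 for plant 2. A set of 24 members had plant 3 as the highest plant at B2 in *C. linearis* and the lowest in *C. rattanii*, a set picked after the values were seen. The place of plant 3 in the B2 medians of this set was fixed by that choice. Picking low B2 values in *C. rattanii* plant 3 also favors B2 values below B3 in it. The share of all genes with this order of plants is not given here. Their median CPM at B2 was 5.47, 5.33 and 12.6 in *C. linearis* plants 1 to 3 and 7.70, 3.81 and 0.742 in *C. rattanii* plants 1 to 3. *C. rattanii* plant 3 was at 1.66 CPM on the same measure at B3, and 20 of the 24 members stood lower at B2 than at B3 in it. Plants of the 2 species share only a number.

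When log2 CPM profiles over the 18 libraries, centered within each species, were clustered by correlation (average linkage, distance of 0.35), 75 members fell into 1 group and 6 into another, and *RCORA04055*, *RCORA25092* and *RCORA11303* joined neither. The clustering describes genes that the rule had already selected. In the large group, *C. linearis* plant 1 was the lowest plant at B1 for 61 of the 75 members, with a median of 9.34 CPM against 20.3 CPM in both other plants. Plant 1 was also the plant with the smallest median fall over all members, and without its B1 library the rule took more genes, as given above.

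**Figure D4:**
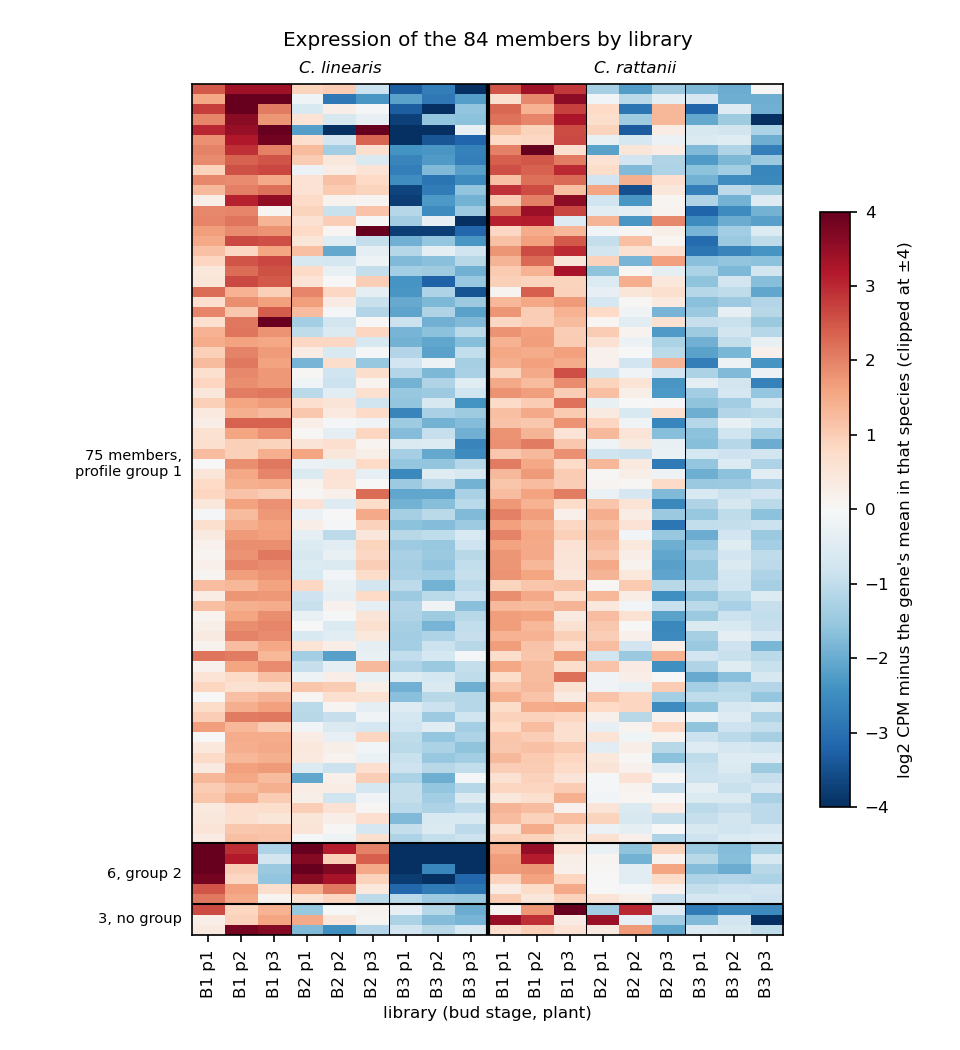
Log2 CPM of the 84 members (rows) in the 18 libraries (columns, by species, stage and plant), each row centered on its mean in that species and clipped at ±4, with red above and blue below the mean. The 75 members of group 1 run from red at B1 to blue at B3, the 6 members of group 2 have plant 1 as the highest *C. linearis* plant at B1 and are mostly red at B2 there, and many rows are blue in *C. rattanii* plant 3 at B2.

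The 6 members of the small group behaved differently in *C. linearis*. At B1 all 6 had plant 1 above plant 2 and plant 2 above plant 3, with the highest plant 3.58 to 103 times the lowest. Their median was 214, 49.8 and 5.07 CPM in plants 1 to 3 at B1, and 114, 103 and 32.6 CPM at B2. It was 0.164, 0.671 and 0.425 CPM at B3. In plants 2 and 3 the group's median was thus higher at B2 than at B1. *RCORA20169* stood lower at B2 than at B1 in both plants, *RCORA75134* did so in plant 2 and *RCORA140092* in plant 3. The share of the fall made by B2 in *C. linearis* ran from -34 to 43.3% over the 6 members. In *C. rattanii* the median was 1.52, 4.10 and 1.97 CPM at B1, 0.796, 0.675 and 1.25 CPM at B2, and 0.363, 0.378 and 0.427 CPM at B3. The 6 falls ran from 2.58 to 8.15 in *C. linearis* and from 1.52 to 3.31 in *C. rattanii*.

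The group held the 2 members with the smallest mean share of the fall by B2. *RCORA79078* was at 130, 13.6 and 2.40 CPM in *C. linearis* at B1 and at 131, 89.6 and 19.8 CPM at B2, against 0.0410, 1.06 and 0.248 CPM at B3. Plant 1 held its level and plants 2 and 3 rose before the fall. *RCORA215648* did the same, with 257, 32.0 and 5.99 CPM at B1, 230, 177 and 33.9 CPM at B2 and 1.23, 1.01 and 1.95 CPM at B3. In *C. rattanii* both were low at each stage. There *RCORA79078* went from 1.29, 1.33 and 0.413 CPM at B1 to 0.0604, 0.0398 and 0.126 CPM at B3, the last from 2, 1 and 4 counts. *RCORA215648* went from 3.31, 5.33 and 3.14 CPM to 0.695, 0.716 and 0.664 CPM. The *C. linearis* shares were -34% and -33.9%, so that both stood higher at B2 than at B1 on the log2 scale. Without plants 1, 2 or 3 the share was -87.1, -22.8 and -19.7% for *RCORA79078* and -76.2, -25.2 and -18.3% for *RCORA215648*. The *C. rattanii* share of *RCORA79078*, 29.3%, was 16.4, 5.96 and 53.8% in the same way, and that of *RCORA215648*, 44.1%, was 25.2% without plant 2.

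No B2 library was used to choose the members, so the species were compared at B2. The B2 libraries came from the same plants as those that chose the members, and 75 of the 84 members already had a higher mean log2 CPM in *C. linearis* at B1. Of the 19573 genes with a mean B1 CPM of at least 1 in each species, 50.2% did. The species were tested on the 6 B2 libraries with edgeR's quasi-likelihood F-test, two-sided, over the 25263 genes that passed its filter on low counts, at a false discovery rate (FDR, Benjamini-Hochberg) of 0.01. Of the 84 members 83 passed the filter. The exception, *RCORA185038*, had a mean of 0.124 CPM in *C. linearis* and 0.114 CPM in *C. rattanii* at B2. In *C. linearis*, 7 of the 83 members were higher (8.43%), against 5.09% of all genes tested. In *C. rattanii*, 0 members were higher, against 5.34% of all genes. At an unadjusted p under 0.05 the counts were 30 members higher in *C. linearis* (36.1%, against 19.6%) and 6 higher in *C. rattanii* (7.23%, against 20.7%). With 7 calls, the share at FDR 0.01 was near the background.

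At B2 most members, though not all, stood higher in *C. linearis*. The median log2 difference at B2, *C. linearis* minus *C. rattanii*, was 0.95 over the 83 members (middle 50% 0.23 to 1.92) and -0.10 over all genes tested. It was above 0 for 67 members and below 0 for 16, where 46.5% of all genes were above 0. At B2, all 3 *C. linearis* libraries stood above all 3 *C. rattanii* libraries for 33 members (39.3%, against 19.9% of the 19573 genes), and the reverse held for *RCORA26567*, *RCORA227205*, *RCORA25092* and *RCORA17092* (4 members, 4.76%, against 21.7%). At B3 the groups stood apart with *C. linearis* higher for 35 members (against 23% of the 19573 genes) and with *C. rattanii* higher for 8 (against 26%). At B1 *C. linearis* was higher in this way for 34 (against 19.1%) and *C. rattanii* for 5 (against 21.4%). The B1 and B3 counts use libraries of the rule. The difference of mean log2 CPM had a median of 0.92 over the members at B1, 1.2 at B2 and 0.52 at B3, against 0.00, -0.10 and -0.06 over the 19573 genes. The 63 genes that rose in both species by the mirrored rule had a median of -1.39 at B2 in the same fit. Of their 60 tested genes, 1.67% were called higher in *C. linearis* and 10% higher in *C. rattanii*. The 2 lists were not tested against each other. Reads of both species were aligned to the *C. rattanii* genome, and how well the reads of each species map to a gene was not tested.

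**Figure D5:**
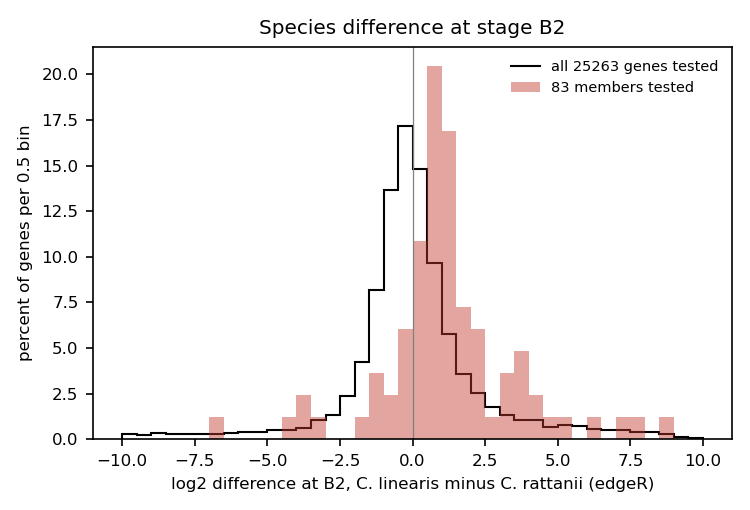
Distribution of edgeR's log2 difference at B2 (*C. linearis* minus *C. rattanii*) in bins of 0.5 (values beyond the ends of the axis are not drawn), as percent of the 83 members tested (filled) and of all 25263 genes tested (line). The members center to the right of 0, with a median of 0.95 against -0.10 for all genes.

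The 7 called members were 3.92 to 8.58 higher in *C. linearis* on the log2 scale, and their B2 libraries did not overlap between the species. Of them, 4 belonged to the small group described above (*RCORA213459*, *RCORA75134*, *RCORA215648* and *RCORA79078*). The largest difference was that of *RCORA213459*, at 458, 119 and 53.1 CPM in *C. linearis* plants 1 to 3 and 0.431, 0.132 and 1.08 CPM in *C. rattanii* plants 1 to 3 at B2. The *C. rattanii* values come from 13, 5 and 35 counts. The log2 difference was 8.58 (standard error 1.28, edgeR FDR 0.00521). At B1 the same gene was at 586, 104 and 5.70 CPM in *C. linearis* and at 1.58, 6.78 and 0.798 CPM in *C. rattanii*, so that there *C. linearis* plant 3 lay below *C. rattanii* plant 2. At B3 both species were low, with 0.0410, 0.168 and 0.567 CPM in *C. linearis* and 0.151, 0.119 and 0.190 CPM in *C. rattanii*.

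*RCORA75134* was next, at 96.7, 14.6 and 39.4 CPM in *C. linearis* and 0.299, 0.0265 and 0.309 CPM in *C. rattanii* at B2, the latter from 9, 1 and 10 counts. Its difference was 7.90 (standard error 1.11, edgeR FDR 0.00435). At B1 it was at 172, 67.6 and 4.44 CPM in *C. linearis* and at 1.01, 2.87 and 0.330 CPM in *C. rattanii*. At B3 its means were 0.247 ± 0.111 and 0.0962 ± 0.0593 CPM (SD, n = 3 plants), so the gap of B2 had nearly closed. In the reverse direction, *RCORA227205* came nearest to the threshold, with a difference of -6.82 (standard error 1.27, edgeR FDR 0.0102), and *RCORA26567* was next, with -4.13 (standard error 0.80, edgeR FDR 0.0115). Neither passed.

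These calls rest on 3 plants a side. Without *C. linearis* plants 1, 2 or 3 at B2 the number of members called higher in *C. linearis* was 2, 3 and 10, and without *C. rattanii* plants 1, 2 or 3 it was 0, 1 and 0. Of all genes tested, 1.11, 0.793 and 5.05% were called higher in *C. linearis* without its plants 1, 2 or 3. Without *C. rattanii* plants 1, 2 or 3 the share was 0, 0.464 and 0.226%. With all 6 libraries it was 5.09%. Without *C. rattanii* plant 1, 0 genes passed in either direction. The members' median difference stayed between 0.69 and 1.39 in these fits. DESeq2's Wald test on the same 6 libraries called 21 of 82 members higher in *C. linearis*, against 13.5% of all genes it tested. It called 5 members higher in *C. rattanii*, against 11.3% of all genes. All 7 members called by edgeR were among the 21.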

How the data were processed

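RNA was sequenced from poly(A)-selected libraries of floral buds of 3 plants per species at 3 bud stages. Before deposit, the authors mapped all libraries, of either species, to 1 genome (*C. rattanii*) with STAR in 2-pass mode, and featureCounts gave each gene model its reads. The deposited table holds whole-number counts, not normalized, for 46127 genes, fewer than the gene models the paper counts. The sources used here do not state strand or multi-mapping settings, so near-identical gene copies and overlapping genes are uncertain. Species, stage and plant were taken from the sample titles. The 2 columns that match no single sample were not used.

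In R 4.3.3, TMM factors were computed over all 46127 genes with edgeR 4.0.16. CPM values use these library sizes, and log2 CPM a prior count of 2. The share of the fall made by B2 is the B1 to B2 change over the B1 to B3 change of mean log2 CPM. The B2 test used filterByExpr and a robust quasi-likelihood fit on the 6 B2 libraries, because the B1 and B3 libraries chose the members. The paper's model of all 18 libraries and DESeq2 1.42.0 were alternatives. Standard errors restate the F-test. The B2 test was also run on simulated counts with the same spread set for all genes, and the rule on simulated CPM values. The falls, shares and clustering were not checked in this way.

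Libraries of 1 plant are paired across stages, as the labels name the plant. Deviations from group means correlated between -0.45 and 0.64 over 18 same-plant pairs (median -0.05, against 0.02 for different plants). P-values of the B2 test set the species difference against the spread between plants, which edgeR estimates partly from other genes. Population was not in the model, so that spread may include differences between populations of a species. Named genes are the 2 members with the highest B1 level, the 2 with the largest fall, up to 2 in each direction of the B2 test with groups not overlapping, the 2 with the largest and smallest share, and the 2 whose share differs most between species in each direction. Other identifiers were named after their values were seen. The members and lists were chosen with earlier results of these data known.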

Additional observations from a re-analysis of the deposited data

How the results depend on the processing

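For the species difference at B2, TMM on the B2 libraries alone and no filter on low counts each gave 7 members higher in *C. linearis* and 0 higher in *C. rattanii*. Of all genes tested, 5.16 and 5.32% were called in these directions with the first setting, and 2.7 and 2.96% with the second. DESeq2's size factors in edgeR gave 8 and 1 (4.98 and 5% of all genes tested). DESeq2's Wald test gave 21 and 5 (13.5 and 11.3% of all genes). The model of all 18 libraries gave 18 and 2 (8.85 and 10.9% of all genes). In the last fit the spread is estimated partly on the libraries that chose the members. Leaving out each library in turn gave 0 to 10 and 0 to 1, with a median difference of 0.69 to 1.39. In these fits 0 to 5.05% and 0 to 3.9% of all genes tested were called. A replicate block by plant number gave 0 and 0 members, and 0 genes of all tested, with a median of 1.17. Plants of the species share only a number (correlations of -0.13, -0.17 and -0.03 for plants 1 to 3, and 0 of the 6 libraries correlated best with its own number). The cause of these moves was not tested.

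The rule took 27 genes with a fold of 3, 44 with a mean B1 CPM of at least 5, 112 on raw library totals, 80 with DESeq2's size factors, and 84 to 141 with a library left out. Pairing B1 and B3 within plants (replicate block) took 159. This rule is looser, since a gene that meets the main rule also meets it within each plant. All 84 were therefore among them by construction. With a plant left out, the median fall was 2.61 to 3.13 in *C. linearis* and 2.35 to 2.59 in *C. rattanii*, and the share by B2 39.7 to 51.9% and 45.6 to 73.0%. With prior counts of 0.5 and 5 the median fall was 2.82 and 2.74 in *C. linearis*, and 2.53 and 2.32 in *C. rattanii*. The B2 calls of *RCORA213459* and *RCORA75134* were each lost in 5 alternatives, the block and leave-outs, with the same direction.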
